A study of Mus musculus with 14 samples.

Results

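Ageing of the wild type liver was examined by setting the arrays of 3 wild type mice of 22 months against those of 4 wild type mice of 6 months. These are 7 of the 14 arrays of the series, chosen by their titles. The mice were the controls of the Snell dwarf, a long-lived mouse that carries a mutation of Pit-1, a factor without which the pituitary lacks its growth hormone, prolactin and thyrotropin cells. The other 7 arrays held dwarf mice, 4 of 6 months and 3 of 22 months, and enter here through the shared estimate of the spread and the test of whether ageing differed between genotypes. Each array held liver total RNA of 1 mouse, and animals are called by the numbers in their labels: 1, 2 and 24 at 22 months, and 82, 84, 86 and 88 at 6 months. The labels name no sex, strain background, diet or batch, and no treatment. Age is the single difference between both wild type groups that the labels give. Young and old animals were different mice, so the comparison is between ages and does not follow any animal over time.

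The liver makes most plasma proteins, bile acids and lipoproteins, and it oxidises or stores fatty acids according to the supply of food. Hepatocytes make up most of its mass, beside resident macrophages (Kupffer cells), sinusoidal endothelium, stellate cells, bile duct cells and lymphocytes. Ageing of rodent liver is known for gathering of lymphocytes and antigen-presenting cells and for shifts in lipid metabolism and in the clearance of foreign compounds. In whole tissue, more cells of a type and more RNA per cell cannot be told apart.

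Values are Affymetrix signals, which are higher where more labelled RNA bound the probe set of a gene. Signals below 54.9, the 25th percentile of all values, were set to that floor before log2 values were taken. Testing was limited to probe sets above 184.8, the median of all values, on 3 or more of the 14 arrays. Of 12422 probe sets that were no controls, 7227 were tested, and 5473 genes could be named among them, each read by its probe set of highest mean signal. The other 5195 had lower signals and are left out of every count below. A gene "passed" when its adjusted p (limma over 14 arrays, Benjamini-Hochberg over the 7227 probe sets) lay below 0.05. The 15 hepatocyte markers were all tested, and their summed signal was 210299 to 269405 at 22 months and 207496 to 244456 at 6 months. Alb, the albumin gene, had 48075.2, 38403.5 and 43274.4 in the old and 38093.0, 44826.0, 43121.2 and 45393.3 in the young animals, so hepatocyte markers were present at both ages. Among these markers Ahsg (fetuin-A) alone passed, at 1.54-fold higher with age.

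One young array stood apart from the others. In a principal component analysis of the 7 arrays, component 1 held 33.7% of the variance, and the old animals scored 20.1 to 22.5. The young animals 82, 84 and 86 scored -19.2, -29.2 and -22.3, whereas the young animal 88 scored 6.03. Its mean correlation over all probe sets was 0.957 with the old arrays and 0.950 with the other young arrays. Beta-actin gave a ratio of its 3' to its 5' control probe set, which rises as RNA breaks down, of 1.16 in animal 88, against 1.56 to 2.38 in the other young and 1.52 to 1.74 in the old animals. The 18S ribosomal RNA control gave 339.8, 4852.8 and 640.2 at 22 months, 587.6 in animal 88, and 74.5, 181.8 and 93.0 in the other young animals. None of 5 such array measures differed between the ages after adjustment (exact two-sided permutation test over 35 splits, whose smallest p is 0.0286; for 18S p = 0.0571, adjusted 0.286). With 7 arrays no single measure among 5 could have passed after adjustment, so this test could not show such a difference. The 18S signal was higher in the old animals than in the young animals 82, 84 and 86, but animal 88 lay above animal 1. The part of the 18S signal in the changes below was not tested beyond the fit with 18S as a covariate given with the counts. For many of the gene lists the count of calls is also given without animal 88. Each such count stands beside 3.71% of all probe sets that rose and 2.62% that fell in that fit.

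**Figure D1:**
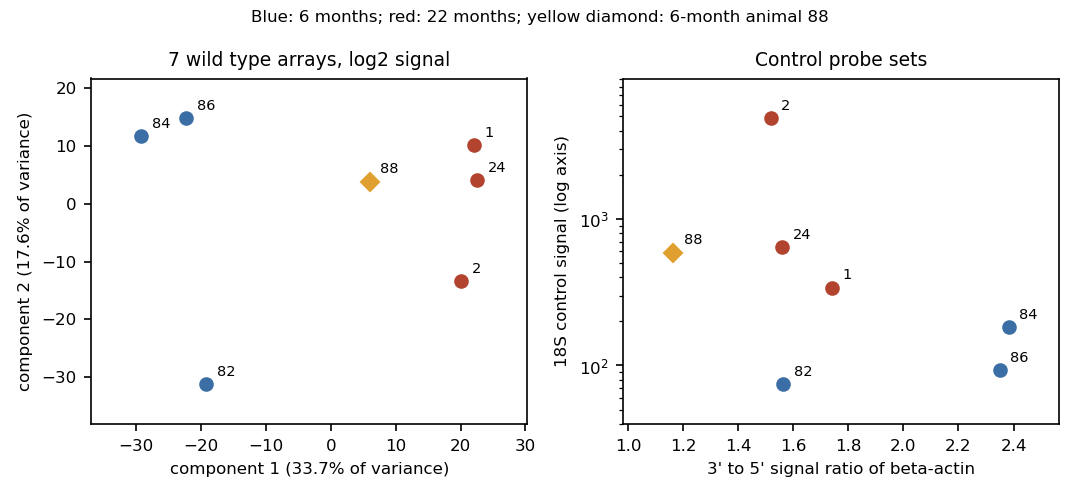
Left, scores of the 7 wild type arrays on the first and second principal components of log2 signal, labelled by animal. Right, the 18S control signal (log axis) against the 3' to 5' ratio of beta-actin. The 6-month animal 88 (diamond) lies at 6.03 on component 1, between the old animals (20.1 to 22.5) and the other young animals, and has an 18S signal of 587.6.

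With age, 105 of the 7227 probe sets rose (1.45%) and 75 fell (1.04%), which makes 180 (2.49%). By gene, 77 of 5473 rose (1.41%) and 59 fell (1.08%), which makes 136 (2.48%). The counts of gene lists below stand beside these shares. Of these genes, 38 that rose (0.694%) and 22 that fell (0.402%) changed by 2-fold or more, and the median size was 1.95-fold for rises and 1.80-fold for falls. The median log2 change was -0.02 over all tested genes. At an unadjusted p under 0.05, 1265 probe sets differed. The signals of old and young animals did not overlap for 443 genes that were higher (8.09%) and 424 that were lower (7.75%), and these held 75 of the 77 and 58 of the 59 genes that passed. With animal 88 left out, 268 probe sets rose (3.71%) and 189 fell (2.62%), which included 104 of the 105 rises and all 75 falls. On the way from the other young animals to the old ones, animal 88 lay at a median of 8.09% for the genes that rose and 23.4% for those that fell, and beyond midway for 11 and 9 of them. These genes were called with animal 88 counted as young, which favours genes where it lay near the other young animals. The shares therefore do not show where it lies in general, whereas its component 1 score of 6.03 rests on all tested probe sets.

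The calls depended on which array was left out. Leaving out any array other than animal 88 gave fewer: 32 rises and 28 falls without animal 1, 38 and 31 without 2, 49 and 19 without 24, 84 and 47 without 82, 40 and 25 without 84, and 42 and 19 without 86. None of the 64 called genes named by the rule lost its call without animal 88. Each of the 64 kept its direction with every array left out, and 17 kept their call: Tff3, H2-Aa, Igkv6-23, Sqle, Cyp4a14, Cd63, Actb, Btg2, Pros1, Dhcr7, Abcd3, Hal, Foxa3, Ctsa, Aqp4, Bpifa2 and Gsta2. The other 47 lost it without at least 1 array, which is 22 to 39 of the 64 for each of the other 6 arrays. When the log of the 18S signal was added to the model, 7 rises and 2 falls passed, while all 180 probe sets kept their sign. The median log2 change of the rises was 0.95 in that fit and 1.01 without it, and that of the falls -0.78 and -0.80.

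The largest rise was that of Tff3, intestinal trefoil factor, a secreted peptide of mucus-making epithelia that is also made in bile ducts. Its signals were 6541.8, 3963.0 and 2786.0 in the old animals and 103.8, 48.2, 61.4 and 71.6 in the young ones. The groups lay far apart, with the young animals at or near the floor. The change was 5.88 ± 0.56 on the log2 scale (SE), or 58.9-fold (adjusted p = 0.000114). Other bile duct markers did not follow: Krt19, Krt7 and Epcam were below the floor on all 7 arrays, and Krt8 and Krt18, which hepatocytes also express, changed by 0.50 and 0.74 without passing. Of the 6 cholangiocyte markers tested, Tff3 was the single one that passed. The summed signal of the 12 such markers on the array, Tff3 included, was 9522 to 15949 at 22 months and 4691 to 5804 at 6 months. In dwarf mice Tff3 rose too, from 194 ± 181 (SD, n = 4) to 755 ± 557 (n = 3), and its rise in wild type mice was larger by 3.82 on the log2 scale (adjusted p of the difference 0.0219).

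Genes of MHC class II, the molecules with which macrophages, dendritic cells and B cells present peptides to helper T cells, supplied 4 rises with age and no fall, led by the alpha and beta chains of the I-A molecule. H2-Aa had 1256.1, 886.7 and 707.7 in the old and 150.6, 47.5, 79.3 and 91.9 in the young animals, a change of 3.39 ± 0.42 or 10.5-fold (adjusted p = 0.000816). H2-Ab1 had 581.7, 404.0 and 347.7 against 99.8, 104.5, 113.3 and 96.5, a change of 2.07 ± 0.41 (adjusted p = 0.0186). For both chains every old animal lay above every young one, and animal 1 was the highest. Cd74, the invariant chain that guards the peptide groove until loading, had 5058.7, 2981.1 and 2135.4 against 1824.6, 997.1, 1356.4 and 1482.5, and changed by 1.20 ± 0.28 (adjusted p = 0.0352). Ctss, cathepsin S, the protease that trims the invariant chain, rose 1.94-fold (adjusted p = 0.0403). Of the 10 tested genes of the MHC class II list, these 4 rose and none fell, beside 1.41% and 1.08% of all genes. The 4 rose without animal 88 as well. All 10 had a positive change, with a median of 0.88 beside -0.02 for all genes. The chaperone subunits H2-DMa and H2-DMb1 changed by 1.12 and 0.81 and H2-Eb1 by 0.67 without passing. H2-DMa, H2-DMb1 and H2-Eb1, like other genes given below without a place in the rule for named genes, were picked after their values were seen. The list's count of rises ran from 1 to 6 when single arrays were left out, and its median from 0.78 to 0.99. Ciita, the master regulator of these genes, was not tested because of its low signal.

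The bases before the start site of H2-Aa are shown because class II promoters are known for a Y box, an inverted CCAAT sequence. The sequence is from RefSeq (GRCm38.p6), 5' to 3' along the gene's strand and ending just before the start site, with the inverted CCAAT in capitals. It lies 48 bases before the start.
H2-Aa (chr17:34287824-34288073, minus strand): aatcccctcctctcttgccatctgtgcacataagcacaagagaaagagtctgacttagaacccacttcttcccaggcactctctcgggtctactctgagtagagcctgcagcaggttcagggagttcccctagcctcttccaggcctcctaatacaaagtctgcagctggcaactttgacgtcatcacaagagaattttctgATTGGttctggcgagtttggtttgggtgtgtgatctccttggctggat

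Ighm, the heavy chain of IgM, had 1176.8, 1467.3 and 1139.9 in the old and 548.4, 708.9, 628.3 and 619.2 in the young animals, a 2.01-fold rise (log2 1.01 ± 0.22, adjusted p = 0.0275). Jchain, which joins IgM and IgA subunits and marks plasma cells, had 383.9, 396.1 and 474.1 against 193.7, 178.7, 237.0 and 188.4, a 2.10-fold rise. Igha, the heavy chain of IgA, rose 3.75-fold, from 167 ± 129 (n = 4) to 518 ± 128 (n = 3), with the young animal 82 at 353.4, close to the lowest old animal at 372.8. Igkv6-23, a variable segment of the kappa light chain, rose 7.12-fold, from 317 ± 113 to 2328 ± 1147. Its probe set carries the suffix _f_at, with which the array marks sets that may bind several related transcripts, so other kappa segments may add to it. Further Ighm probe sets gave log2 changes of 0.34 and 1.32 that did not pass. The B cell receptor genes Cd79a, Cd79b and Ms4a1 changed by -0.36, 0.29 and -0.01, none passing. Of 12 tested B cell and plasma cell markers, 3 rose and none fell, beside 1.41% and 1.08% of all genes. Changes were positive for 6 and negative for 6, and the median was 0.14. With single arrays left out, 0 to 3 rose and the median ran from 0.01 to 0.30. Ighm and Jchain lost their call without any 1 of the 6 arrays other than animal 88, and Igha without 5 of them. The summed signal of the 16 such markers on the array was 6879 to 9259 at 22 months and 5412 to 6369 at 6 months. Much of that sum came from Xbp1, the tested marker of highest mean signal, which did not pass (adjusted p = 0.058). Xbp1 had 2757.2, 3221.9 and 4527.0 in the old and 2140.2, 2601.3, 2099.9 and 1857.7 in the young animals.

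Macrophage markers had mostly positive changes, though few passed. Of 15 tested, 2 rose, Lyz2 (lysozyme 2) and Ctss, beside 1.41% of all genes, and none fell. A positive change was seen in 14, and the median was 0.68. Lyz2 had 927.7, 769.4 and 749.6 in the old and 555.0, 384.2, 563.0 and 447.1 in the young animals. The Kupffer cell markers Clec4f and Cd5l changed by 0.68 and 0.73, and the complement subunits C1qa, C1qb and C1qc by 0.86, 0.82 and 0.45, without passing. The summed signal of the 17 macrophage markers on the array was 10979 to 15882 at 22 months and 7167 to 12123 at 6 months, so the ranges overlapped. Lyz2 and Ctss both lost their call with animal 1, 2, 84 or 86 left out, and Lyz2 without 24 as well. Of 21 T cell and natural killer cell markers, 6 reached the signal for testing and none passed, with a median of 0.02, while Cd3d and Cd8a were below the floor on all 7 arrays. Summed signals of those markers were 3261 to 3865 at 22 and 2737 to 3880 at 6 months. Endothelial markers (7 tested) and neutrophil markers (7 tested) held no call in either direction, though 1 endothelial marker fell without animal 88. The red cell markers had a median of -0.68 over 5 genes, none passing. The part of cell composition in the immune changes was not tested.

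**Figure D2:**
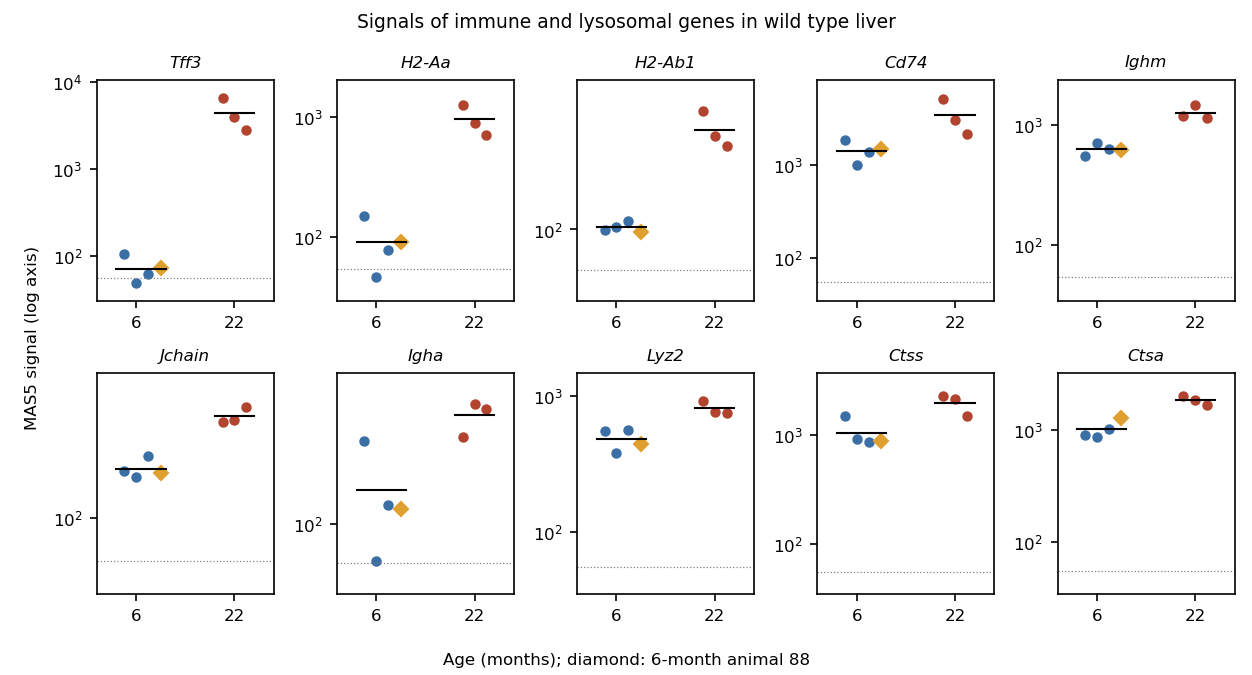
Signal of each array (log axis) for 10 immune and lysosomal genes in wild type liver at 6 and 22 months. Points are animals, bars are arithmetic group means, the diamond is animal 88, and the dotted line is the floor of 54.9. In each panel all 3 old animals lie above the young ones.

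Class I presentation and interferon-stimulated genes showed smaller changes. Psme1, an activator subunit of the proteasome that is induced by interferon, had 1704.5, 2104.9 and 1949.3 in the old and 947.2, 856.0, 1020.3 and 1265.5 in the young animals, a 1.89-fold rise (adjusted p = 0.0117). Tapbp, tapasin, which helps to load class I molecules, rose 1.82-fold (adjusted p = 0.0352), but its other probe sets changed by 0.39 and -0.25 without passing. These were the 2 calls among 11 tested class I genes, of which 11 had a positive change, and 0 to 3 rose with single arrays left out (3 without animal 88). The immunoproteasome subunits Psmb8, Psmb9 and Psmb10 changed by 0.60, 0.90 and 0.65. Among 18 interferon-stimulated genes, Ifi27 rose 1.73-fold as the single call, beside 1.41% of all genes that rose, and 17 were positive, with a median of 0.58. Without animal 88, 3 interferon-stimulated genes rose, and 0 to 3 with single arrays left out. Irf7, a transcription factor of the interferon response, changed by 1.64 without passing. By contrast, the 40 tested genes of the constitutive proteasome and ubiquitin list held no call and had a median of -0.09. Acute phase genes (23 tested) and chemokines and cytokines (12 tested) held none either. Without animal 88, 1 gene of the proteasome list and 1 of the chemokine list fell, beside 2.62% of all probe sets.

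Lysosomal genes supplied 6 rises and no fall among 34 tested, beside 1.41% of all genes that rose and 1.08% that fell. Cd63, a tetraspanin of late endosomes and of granules, had 1141.9, 367.2 and 460.9 in the old and 125.0, 180.6, 171.8 and 104.1 in the young animals, a 4.08-fold rise (log2 2.03 ± 0.36, adjusted p = 0.0107). Ctsa, protective protein or cathepsin A, had 1987.7, 1854.9 and 1658.8 against 902.4, 857.9, 1013.0 and 1276.6, with animal 88 the highest young value. Hexa, a subunit of beta-hexosaminidase, rose 1.89-fold. The remaining members were Ctss, Npc2 (a sterol carrier of the lysosome, log2 0.87) and Ctsd (cathepsin D, 0.71), the last 2 named after their values were seen. The list's median was 0.23, and Lamp1, a membrane protein used as a lysosome marker, differed by -0.08. Without animal 88, 7 lysosomal genes rose and 1 fell, and over all single arrays left out the rises ran from 2 to 7.

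Cholesterol synthesis supplied 4 rises and no fall. This pathway builds cholesterol from acetyl-CoA by way of mevalonate and squalene and is known to be driven by the SREBP-2 transcription factor when cell sterol is low. Sqle, squalene epoxidase, which makes the first oxygenated sterol precursor, had 3702.6, 4064.3 and 4333.3 in the old and 510.1, 998.5, 742.8 and 651.1 in the young animals. The lowest old signal was far above the highest young one, and the rise was 5.71-fold (log2 2.51 ± 0.28, adjusted p = 0.00036). Dhcr7, the enzyme of the last step to cholesterol, had 1294.6, 1124.2 and 946.1 against 357.6, 397.6, 303.7 and 395.5, a 3.08-fold rise (adjusted p = 0.00152). Lss, lanosterol synthase, had 1660.5, 1282.7 and 863.1 against 306.9, 704.2, 630.0 and 530.6 (log2 1.24 ± 0.26, adjusted p = 0.0224). Mvd, mevalonate diphosphate decarboxylase, had 580.9, 620.3 and 281.1 against 135.8, 114.3, 29.6 and 216.8, and animal 88 reached 51.9% of the way to the old group. These 4 of 16 tested genes rose and none fell, beside 1.41% and 1.08% of all genes, 15 of 16 were positive, and the median was 0.81. With single arrays left out, 2 to 5 rose and the median stayed between 0.70 and 0.91. Fdps, farnesyl diphosphate synthase, had 10811.2, 12535.7 and 9794.0 against 3743.4, 6203.7, 4452.0 and 5133.1, and missed the threshold (log2 1.20 ± 0.32, adjusted p = 0.0604). A second Fdps probe set of the _f_at kind did pass, at 1.26, while another, at 56.2 ± 38.0 (n = 3) against 135 ± 98.5 (n = 4), had a change of -0.84 without passing. Without animal 88, 5 genes of the list rose. Hmgcs1, at the entry to the pathway, had an adjusted p of 0.0502 for a log2 change of 0.87.

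The promoters of 4 of these genes are shown, 3 that rose and Hmgcs1, which did not pass, since promoters of this pathway are known sites of SREBP and NF-Y. RefSeq (GRCm38.p6) held start sites for 14 of the 17 sterol genes on the array, as 16 windows of 300 bases from 250 before to 50 after the start. The CCAAT box (CCAAT, searched on both strands) was in at least 1 window of all 14 genes, and it is in 37.4% of 32851 mouse promoter windows of this length. The sterol regulatory element in the form TCACNCCAC (both strands) was in 1 of the 14, Hmgcs1, beside 1.24% of all windows. These matches are letters in a window, and other forms of either motif were not searched. The 250 bases before each start are printed, 5' to 3' along the gene's strand, with the CCAAT box on either strand and, in Hmgcs1, the sterol element at base 137 before the start in capitals. For Dhcr7 the window with CCAAT matches was taken from 3 start sites.
Lss (chr10:76531355-76531604, plus strand): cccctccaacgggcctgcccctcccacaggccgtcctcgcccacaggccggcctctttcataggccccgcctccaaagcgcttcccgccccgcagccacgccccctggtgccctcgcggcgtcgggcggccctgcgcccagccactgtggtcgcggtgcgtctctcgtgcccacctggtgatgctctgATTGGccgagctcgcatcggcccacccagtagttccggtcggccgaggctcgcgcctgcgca
Mvd (chr8:122443423-122443672, minus strand): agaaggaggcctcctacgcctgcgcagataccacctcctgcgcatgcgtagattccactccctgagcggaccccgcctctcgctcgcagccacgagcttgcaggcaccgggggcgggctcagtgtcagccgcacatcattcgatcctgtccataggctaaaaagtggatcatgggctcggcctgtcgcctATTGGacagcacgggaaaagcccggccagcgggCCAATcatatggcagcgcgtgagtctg
Dhcr7 (chr7:143829964-143830213, plus strand): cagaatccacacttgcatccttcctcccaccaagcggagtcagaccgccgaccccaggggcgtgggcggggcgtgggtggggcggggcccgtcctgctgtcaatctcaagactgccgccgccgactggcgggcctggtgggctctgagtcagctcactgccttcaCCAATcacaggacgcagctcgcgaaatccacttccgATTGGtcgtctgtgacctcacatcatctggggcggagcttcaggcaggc
Hmgcs1 (chr13:119690101-119690350, plus strand): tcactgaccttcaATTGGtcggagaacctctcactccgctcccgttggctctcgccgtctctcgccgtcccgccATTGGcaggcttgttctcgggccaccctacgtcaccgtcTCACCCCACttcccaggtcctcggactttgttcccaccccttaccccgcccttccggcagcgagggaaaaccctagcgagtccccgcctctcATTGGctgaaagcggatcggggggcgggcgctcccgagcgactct

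In fatty acid synthesis, 2 of 20 tested genes rose, none fell, and the median was 0.08. With single arrays left out, 0 to 3 rose (3 without animal 88). Acsl4, an acyl-CoA synthetase that prefers arachidonic acid, had 1223.1, 744.0 and 1065.2 against 403.9, 549.3, 546.0 and 452.1. Scd2, the stearoyl-CoA desaturase that is minor in adult liver, had 1678.7, 888.5 and 262.5 in the old animals against 106.9, 208.2, 264.7 and 201.4. Animal 24 thus overlapped the young animals, and without it the log2 change was 2.72 instead of 1.98. This Scd2 probe set is of the _f_at kind, and another, not of that kind, changed by 1.91 without passing (adjusted p = 0.0604). Acsl4 lost its call without animal 1, 24, 82, 84 or 86, and Scd2 without 1, 2, 82, 84 or 86. Scd1, the main desaturase of liver, and Fasn, fatty acid synthase, changed by -0.22 and 0.01. Fasn varied widely among the old animals, at 7955.2, 3841.3 and 2150.2. Srebf1, the SREBP gene tied to fatty acid synthesis, changed by -0.38 without passing.

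Targets of PPAR-alpha, the nuclear receptor that turns on fatty acid oxidation in fasting, supplied 4 falls and no rise. Cyp4a14, a fatty acid omega-hydroxylase, had 258.4, 364.3 and 230.7 in the old and 1533.6, 729.5, 961.1 and 1190.6 in the young animals, a fall of 3.81-fold (log2 -1.93 ± 0.24, adjusted p = 8.16e-04). Cyp4a10, a near relative read by an _f_at probe set that may bind both, had 358.2, 481.4 and 68.7 against 975.3, 1030.0, 1019.5 and 1229.5. Its log2 change of -2.22 was -1.35 without animal 24, and it lost its call without animal 86. Acot1, a cytosolic acyl-CoA thioesterase, had 162.6, 254.9 and 186.4 against 400.2, 344.3, 429.3 and 593.8 (log2 -1.13 ± 0.21, adjusted p = 0.0141). Cpt2, which regenerates acyl-CoA inside mitochondria, had 2850.1, 3787.7 and 2922.0 against 5309.8, 4333.6, 4961.0 and 6126.8, a fall of 1.63-fold. Both Acot1 and Cpt2 were highest in animal 88, which here lay farther from the old animals than the other young ones did, and both lost their call without animal 1 or 24. In all, 4 of 22 tested targets fell and none rose, beside 1.08% and 1.41% of all genes, 18 were negative, and the median was -0.49. With single arrays left out, 2 to 5 fell (5 without animal 88) and the median ran from -0.72 to -0.32. Abcd3, a transporter of acyl-CoA into peroxisomes, had 9581.3, 9904.1 and 7900.6 against 15007.1, 17102.3, 19732.3 and 15651.5, a fall of 1.85-fold (adjusted p = 0.00548). It was the single call among 21 peroxisomal genes, and Cpt2 the single call among 17 genes of mitochondrial fatty acid oxidation. Without animal 88, 1 gene of each of these lists rose as well. Ppara itself had a log2 change of -0.38, and Fabp1, the fatty acid carrier of liver and a known target, of -0.07, neither passing.

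**Figure D3:**
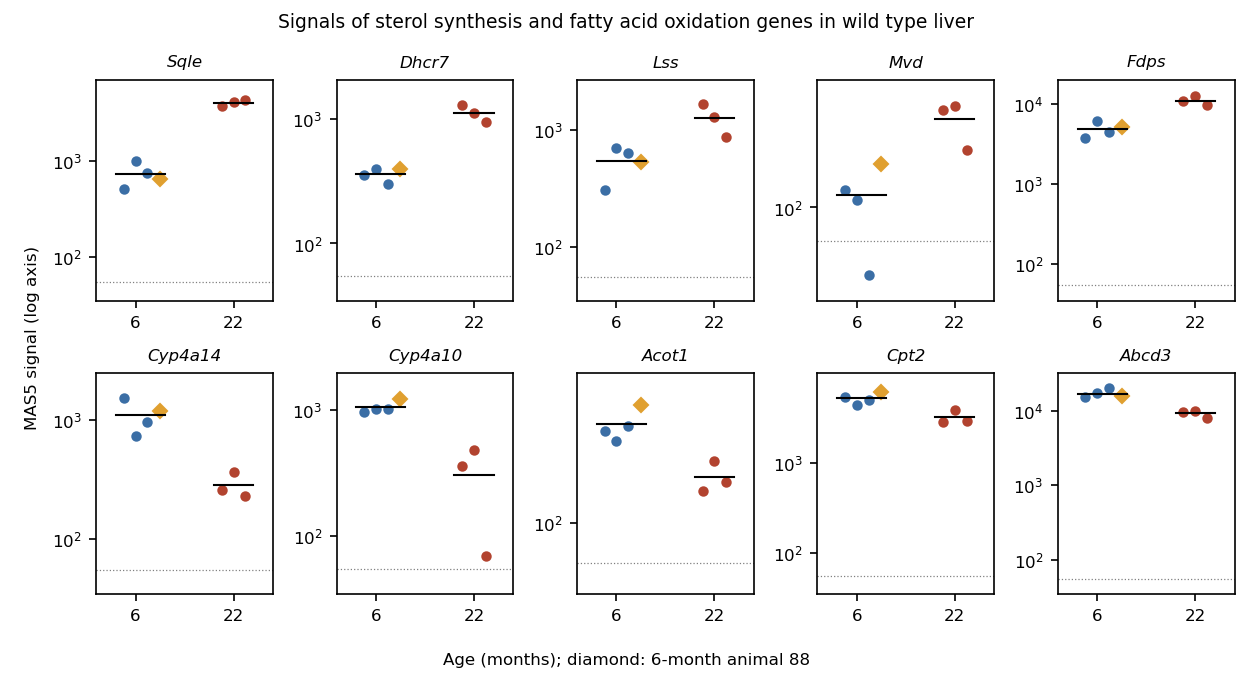
Signal of each array (log axis) for 5 sterol synthesis genes (top) and 5 genes of fatty acid breakdown (bottom) at 6 and 22 months. Points are animals, bars are arithmetic group means, the diamond is animal 88, and the dotted line is the floor of 54.9. Old animals lie above young ones in the top row and below them in the bottom row, and Fdps did not pass.

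Cytochrome P450, glutathione transferase and aldehyde oxidase genes fell where they passed, whereas the sulfotransferase that passed rose. Of 26 cytochrome P450 genes tested, 5 fell and none rose, beside 1.08% and 1.41% of all genes, 20 were negative, and the median was -0.30. With single arrays left out, 2 to 5 fell and 0 or 1 rose. Of the 5 falls, those of both Cyp4a genes were already counted among the PPAR-alpha targets. The others were Cyp2c39, at 1755 ± 216 (n = 3) against 3471 ± 343 (n = 4), and Cyp4v3 and Cyp3a25. The last 2 had log2 changes of -1.09 and -0.64 and were named after their values were seen. Cyp2e1, the ethanol-oxidising P450, changed by -0.08. Among glutathione transferases, which conjugate electrophiles, Gsta2 had 2943.0, 1669.0 and 997.1 against 3954.5, 4360.2, 5360.8 and 4132.0, and fell 2.60-fold (adjusted p = 0.0117). Gsta4, which acts on lipid peroxidation products, fell 2.88-fold, but animal 1 at 562.4 lay within the young range of 545.6 to 782.2, and without that animal the log2 change was -2.22 instead of -1.53. These were 2 of 17, and Gstm1 and Gstp1 changed by -0.03 and -0.01. A second Gstm1 probe set changed by -0.58, and its old and young values did not overlap, but it did not pass. Aox1, aldehyde oxidase, fell 1.74-fold, whereas the sulfotransferase Sult1a1 rose 1.95-fold, from 747 ± 143 to 1447 ± 164. They were the 1 fall and 1 rise among the 17 tested genes of their list, beside 1.08% and 1.41% of all genes. Of 27 antioxidant and NRF2 genes none passed, but 3 rose and 2 fell without animal 88, beside 3.71% and 2.62% of all probe sets.

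Lists of amino acid, glucose and lipid handling held 1 or 2 calls each, beside 1.41% of all genes that rose and 1.08% that fell. Hal, histidase, had 3335.1, 2794.1 and 2251.9 against 5699.9, 5459.3, 5952.1 and 4062.6, a log2 change of -0.93 (adjusted p = 0.00917), and was 1 of 28 urea cycle and amino acid genes to pass. Pck1, the cytosolic enzyme that commits carbon to glucose synthesis, had 1471.9, 1097.9 and 1774.7 against 2774.1, 2796.1, 2703.4 and 3048.3, a fall of 1.99-fold. G6pc, which releases free glucose, changed by -1.58 without passing. Hk1, a hexokinase of low abundance in hepatocytes, rose 1.62-fold. Pck1 and Hk1 were the calls among 24 genes of glucose metabolism, whose median was -0.15. Sardh, which oxidises sarcosine to glycine, fell 1.69-fold, the single call of 16 methionine and one-carbon genes, of which 2 fell without animal 88. Cideb, a lipid droplet and lipoprotein assembly protein, had 5327.2, 5107.7 and 4310.1 against 8122.5, 7774.3, 8188.3 and 7933.9, the single call of 30 lipoprotein and lipid droplet genes, of which 2 fell without animal 88. Abcb4, which carries phospholipid into bile, fell 1.68-fold as the single call of 15 bile acid genes, while Cyp7a1, which starts the main route from cholesterol to bile acids, was low and scattered, at 169.8, 193.1 and 370.0 against 25.1, 180.1, 104.8 and 426.6.

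The growth hormone and IGF axis held 1 call among 19 tested genes. Ghr, the growth hormone receptor, had 2603.2, 2686.9 and 2450.8 against 3502.2, 4393.0, 4340.1 and 3601.1, a fall of 1.53-fold (log2 -0.61 ± 0.13, adjusted p = 0.0234), but another Ghr probe set changed by 0.30 without passing. Igf1, the main mediator of growth hormone, had 7262.5, 5031.4 and 5161.0 against 8743.3, 10810.7, 8832.6 and 7451.8. Those groups did not overlap, yet the log2 change of -0.63 ± 0.30 did not pass (adjusted p = 0.289), and a second probe set gave -0.09. Igfals, which holds IGF-1 in a large serum complex, had 2441.1, 2382.6 and 2375.9 against 3418.7, 2738.8, 3302.9 and 3268.3 (log2 -0.40, adjusted p = 0.559). Igfbp2, an IGF binding protein, was at 4273 ± 1383 (n = 3) against 2027 ± 775 (n = 4), which did not pass. Socs2, a feedback inhibitor, and Egfr changed by 0.84 and -0.16, while further Egfr probe sets changed by 0.36 and 0.11 without passing. No male-biased gene of 11 passed, and Hsd3b5, a male-specific steroid dehydrogenase, changed by 0.07. Of 13 female-biased genes the 3 that fell were Cyp4a14, Cyp4a10 and Cyp2c39, already given.

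Plasma proteins made by hepatocytes rose in a few cases. Among 19 coagulation genes, 3 rose: Pros1 (protein S, 2.10-fold, from 414 ± 42.6 to 880 ± 209), Proc (protein C, 1.77-fold) and Serpinf2 (alpha-2-antiplasmin, 2.04-fold), all inhibitors of clotting or of clot lysis. In animal 88 Proc was at 7818.0, against 4490.6 to 4675.3 in the other young and 9005.2 to 9534.5 in the old animals. Serpinf2 was likewise at 7134.9 in animal 88, against 3347.1 to 5334.1 in the other young animals. For each of Proc and Serpinf2 a further probe set did not follow, at 0.11 and -0.75. Mbl2, mannose-binding lectin, had 3977.6, 3820.5 and 4041.9 against 2708.2, 2665.3, 2574.9 and 2738.1, a 1.48-fold rise and the single call among 19 complement genes, of which 2 rose without animal 88. Of the coagulation genes 1 to 3 rose with single arrays left out. Fibrinogen chains and Hp, haptoglobin, did not pass.

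Among regulators, Foxa3, a forkhead factor of hepatocytes, had 1080.8, 1068.3 and 1021.8 against 434.5, 393.5, 486.1 and 547.1, a 2.29-fold rise (log2 1.19 ± 0.16, adjusted p = 0.00152). It was the single call among 29 liver transcription factors and nuclear receptors, of which 3 rose without animal 88, and Cebpa and Nr1i3 changed by 0.09 and -0.43. Further Nr1i3 probe sets changed by -0.45 and 0.10 without passing. Btg2, an antiproliferative early response gene and p53 target, had 1048.9, 1099.9 and 552.0 against 219.3, 243.3, 211.6 and 250.1, a 3.73-fold rise (adjusted p = 0.00548). Cdkn1a, the p21 cell cycle inhibitor, changed by 1.01 ± 0.53 without passing, and Btg2 was the single call of 17 p53 and senescence genes. Dusp6, a phosphatase of ERK, rose 2.51-fold. Fosl2, an AP-1 subunit, was below the floor in all 3 old animals and at 532.4, 266.0, 346.6 and 207.0 in the young ones, so it was at least 5.78-fold lower with age (adjusted p = 0.0281). Circadian clock genes (15 tested), cell cycle genes (22) and DNA repair genes (24) held no call. Without animal 88, 1 clock gene and 1 DNA repair gene fell, beside 2.62% of all probe sets, and 1 cell cycle gene rose, beside 3.71%.

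Other large changes fell outside these groups. Aqp4, a water channel, had 84.4, 65.9 and 56.8 against 314.8, 392.7, 487.9 and 216.8, a fall of 4.97-fold (log2 -2.31 ± 0.39, adjusted p = 0.00738). A second Aqp4 probe set was at 218 ± 60.1 in young and 70.9 ± 52.9 in old animals and missed the threshold (adjusted p = 0.0587). Bpifa2, a secreted protein best known from the parotid gland, was at 28.8, 75.7 and 47.5 in the old and 357.5, 285.4, 282.8 and 144.0 in the young animals. It passed (adjusted p = 0.0085), but 2 old arrays lay below the floor, so its log2 change of -2.05 is set in part by the floor. Adam28, a membrane metalloprotease, was at 673.6, 602.9 and 645.3 in young animals 82, 84 and 86 but at 190.0 in animal 88, close to the old values of 159.0, 95.2 and 114.5. Fgr, a Src-family kinase of myeloid cells, had 118.8, 66.4 and 73.6 against 257.5, 287.9, 205.5 and 184.7 and fell 2.76-fold. This call was lost without animal 2, 24 or 84. With the floor raised to 184.8 the log2 changes of Aqp4, Bpifa2, Fosl2 and Fgr were -0.87, -0.55, -0.78 and -0.32, and none passed. Gas1, a growth arrest protein of the cell surface, fell 2.62-fold, Gapdhs, the sperm form of a glycolytic enzyme, 2.38-fold and Rtl6, a gene of retrotransposon origin, 2.38-fold. Gapdhs and Rtl6 lost their call without any 1 of the 6 arrays other than animal 88, and Gas1 without 5 of them. Gapdhs and Adam28 were read by probe sets with the suffix _r_at, and whether these bind their own transcript alone was not tested. H1f2, a linker histone, and Wdr6, a WD-repeat protein, rose by 1.97 and 1.81 on the log2 scale. For Wdr6, 2 young arrays (46.9 and 47.7) lay below the floor, which sets its change in part, and with the higher floor it was 0.57. Pdgfra and Reln, both of the stellate cell list, rose 2.99- and 1.65-fold, yet another probe set of each changed by -0.34 and -1.29, and Pdgfra changed by 0.61 with the higher floor and did not pass. The matrix list of 29 genes held no call and had a median of -0.14, and 3 of its genes fell without animal 88.

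Actb rose 4.02-fold in an _f_at probe set, from 377.4, 351.0, 366.6 and, in animal 88, 851.6 to 1974.8, 1833.6 and 1650.7, and an _s_at set of the gene rose too (log2 1.57, adjusted p = 0.0285). The 3' control probe set of beta-actin did not separate the ages, at 14860 to 19745 in the old and 12749 to 20727 in the young animals. The Actb result is therefore given as that of 2 probe sets and not of the gene. Uqcrc2, a core subunit of respiratory complex III, fell 2.36-fold in an _f_at set, and Ndufa7 of complex I fell 1.62-fold. These were 2 of 47 tested genes of oxidative phosphorylation, whose median was -0.08. With single arrays left out, 0 to 6 fell, with 6 without animal 88. The tricarboxylic acid cycle (21 tested) held no call, and 1 of 26 ribosomal protein genes rose, Rpl10a (1.77-fold).

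**Figure D4:**
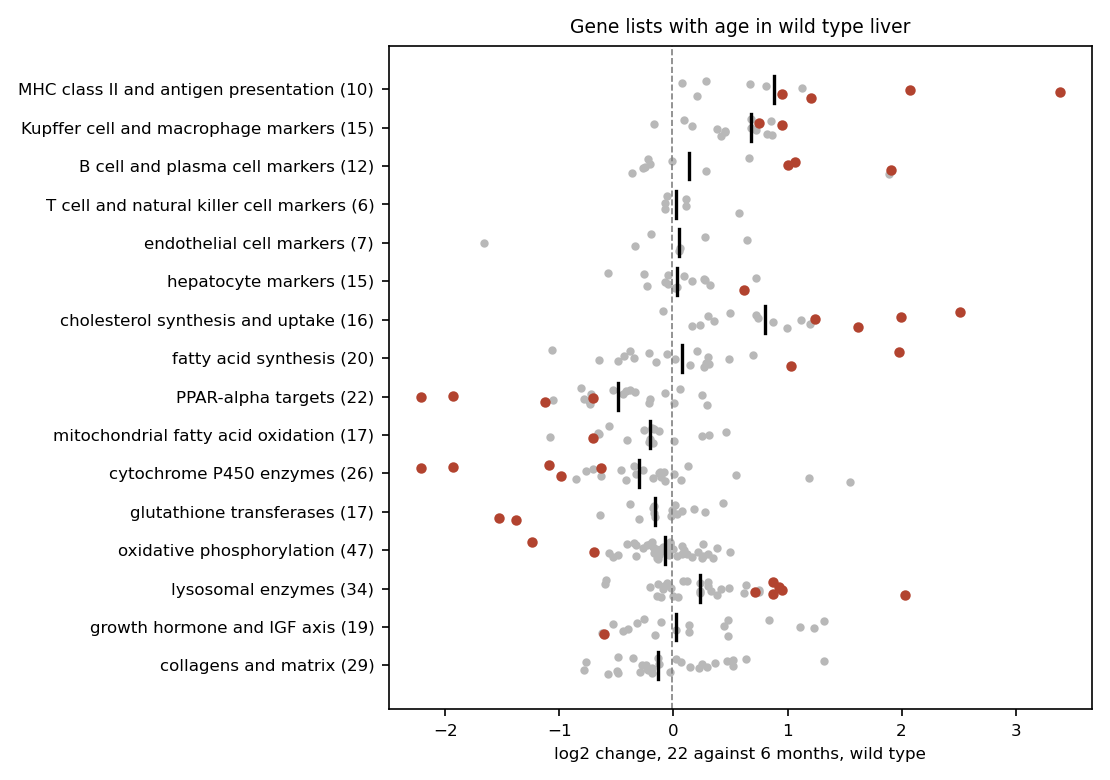
Log2 change with age in wild type liver for the tested genes of 16 lists, with the number of genes in brackets. Red points passed, grey points did not, the black bar is the list's median, and the dashed line is the median of all genes (-0.02). The MHC class II, cholesterol and macrophage lists have medians of 0.88, 0.81 and 0.68, and the PPAR-alpha targets one of -0.49.

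Ageing in wild type mice was set against that in dwarf mice, which lack growth hormone, prolactin and thyrotropin. No array is shared between the 2 ageing comparisons. In dwarf mice the 3' to 5' ratio of beta-actin was 2.29 to 2.69 at 6 months and 1.25 to 1.57 at 22 months. Their 18S signals were 60.8 to 217.4 and 418.4 to 1048.6, so both measures separated the ages in dwarf mice. The part of these measures in the dwarf calls was not tested. As covariates, the 3' to 5' ratio left 57 and 18S left 153 genotype differences, beside the 158 probe sets given below. In dwarf liver 435 genes rose (7.95%) and 465 fell (8.5%). Among probe sets 574 rose (7.94%) and 619 fell (8.57%), but the split was 925 and 242 when arrays were scaled to equal medians, which moved the median change of all probe sets in dwarf mice from -0.09 to 0.12. Of the 77 genes that rose in wild type mice, 27 also rose in dwarf mice, 57 had the same sign and none fell. Of the 59 that fell, 24 also fell in dwarf mice, 42 had the same sign, and 5 rose: Acot1, Aox1, Sardh and, named after their values were seen, Atg5 and Cyp3a25. The difference between genotypes passed for 158 probe sets (2.19%), with 47 more positive (0.65%) and 111 more negative (1.54%) in wild type mice, or 19 and 158 with median scaling. By gene it passed for 128 (2.34%), 32 more positive (0.585%) and 96 more negative (1.75%), among them 12 of the 77 and 17 of the 59.

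Several immune rises were among the genes whose ageing change differed. H2-Aa was at 786 ± 389 (n = 4) in young and 510 ± 140 (n = 3) in old dwarf mice, beside 92.3 ± 43.1 and 950 ± 280 in wild type mice, and its ageing change differed by 3.88 on the log2 scale (adjusted p = 0.00379). Cd74 differed by 1.74 and Ighm by 1.36, both of which lost this call with median scaling, and Cd63 differed by 2.63 (adjusted p = 0.0172). H2-Ab1 did not pass the test of the difference (1.62, adjusted p = 0.198). Median changes of the MHC class II list were 0.88 in wild type and -0.01 in dwarf mice, and those of the macrophage list 0.68 and -0.08. PPAR-alpha targets had medians of -0.49 and 0.37, and the difference passed for 8 of the 22, beside 2.34% of all genes. Acot1 rose in dwarf mice from 304.5 ± 28.4 to 651 ± 98.8 while it fell in wild type mice, a difference of -2.22 (adjusted p = 0.00304). Abcd3 (-1.19), Cpt2 (-0.92) and Cyp4a14 (-1.83) differed in the same direction. Foxa3 (1.44) and Btg2 (2.51) had more positive changes in wild type mice, and Aqp4 (-3.37), Gsta2 (-1.58) and Ghr (-0.88) more negative ones. H2-Aa, Btg2, Acot1, Abcd3, Sardh, Aox1 and Foxa3 kept their call of a difference under all 19 alternative fits. Cd63, Cpt2, Cyp4a14 and Gsta2 lost it with no filter and with the 3' to 5' ratio as a covariate.

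The 4 sterol genes that rose in wild type mice, Sqle, Dhcr7, Lss and Mvd, also rose in dwarf mice. Sqle rose in dwarf mice from 244 ± 97.3 to 956 ± 270, by 2.00 on the log2 scale beside 2.51 in wild type mice, and the difference of 0.51 did not pass (adjusted p = 0.605). Dhcr7, Lss and Mvd rose by 1.52, 0.98 and 1.79 in dwarf mice. None of the 16 tested genes of the list passed the test of the difference, beside 2.34% of all genes. In dwarf mice 11 of them rose, beside 7.95% of all genes, and the list medians were 0.81 in wild type and 1.20 in dwarf mice. The standard error of the difference was 0.39 for Sqle, so a moderate difference between genotypes could not have been detected.

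**Figure D5:**
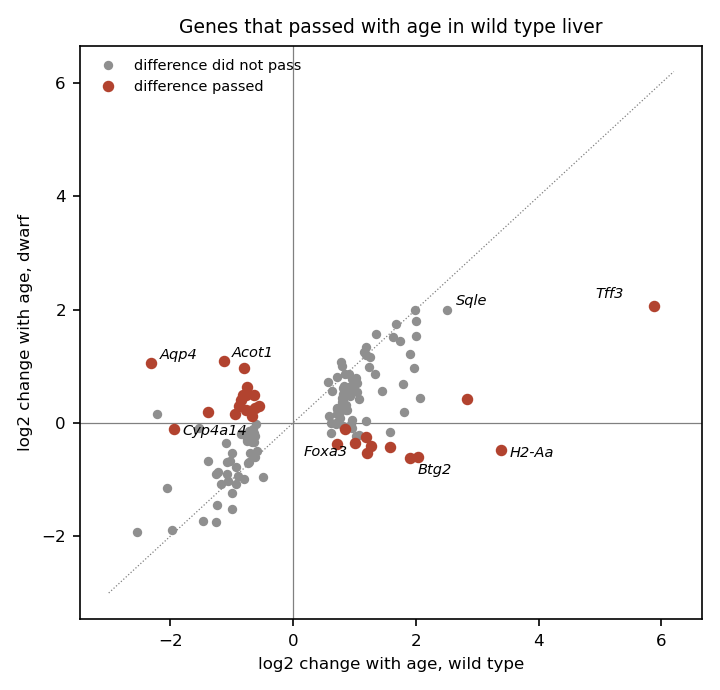
Log2 change with age in dwarf liver against that in wild type liver for the 136 genes that passed in wild type mice. Red points passed the test of the difference between genotypes, and the dotted line marks equal changes. Sqle lies near the line, whereas H2-Aa, at 3.39 and -0.49, lies far below it.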

How the data were processed

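Liver total RNA of 14 mice was labelled with biotin and hybridised to Affymetrix arrays of 12488 probe sets. The deposited values are signal intensities on a linear scale, made by the authors with MAS5, per the submitters' processing notes, and each array has a trimmed mean near 500.4. They were used as deposited, with no detection calls, and the number of arrays limits the precision. Groups came from the labels, and 0 value columns lacked a sample.

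After 66 controls were left out, log2 signals of the 14 arrays were modelled with limma 3.58.1 in R 4.3.3, each group having its own mean, and variances were moderated with an intensity trend, with Benjamini-Hochberg adjustment over 7227 probe sets, separately for each contrast. Of those, 6471 had 1 gene symbol in the GEO platform annotation, updated through the RefSeq annotation (GRCm38.p6), 262 had several and 494 none, and the latter kinds were not named. Array measures were compared by exact permutation. Data simulated for the wild type ageing comparison held 67, 67 and 66 probe sets changed 1.5-, 2- and 4-fold, among 7227. Of these, 7.46%, 52.2% and 84.8% were recovered, with 5 false calls. Whether these shares and the false call count hold for the measured arrays, where a young array stood apart, was not tested.

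Named genes were the 12 largest rises and falls without overlap, up to 3 passed members and the member of highest mean signal of each list, a fixed set of endocrine and metabolic genes, the 6 largest differences between genotypes in each direction, and other probe sets that disagree. Members, lists and the rule were chosen with earlier results of these data known. Alternatives were other scalings, floors, a pseudocount, filters, variance models, array weights, wild type arrays alone, 18S or 3' to 5' ratio covariates, and leaving out each wild type array.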

Additional observations from a re-analysis of the deposited data

Results flagged for a closer look

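In 9 of 131 named genes 1 of the 4 young wild type animals lay far from the others, where chance gives about 1 in 20. The gap to the next animal, as a share of the group's whole range on the log2 scale, is given for each. Animal 88 was the outlying one for 6 of them, with 0.9182 for Actb, 0.9124 for Adam28, 0.9273 for Proc, 0.8352 for Gstp1, 0.9469 for Srebf1 and 0.9024 for Nr1i3. Animal 82 lay apart for Ctss (0.8827) and, on the low side, for Thrsp (0.8827), and animal 84 for Fabp1 (0.8998).

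The ageing change differed between wild type and dwarf mice, by limma's interaction test, for 28 named genes, and the values here are the wild type change minus the dwarf change on the log2 scale. More positive changes in wild type mice were 3.88 for H2-Aa, 1.74 for Cd74, 1.36 for Ighm, 2.41 for Igkv6-23, 2.63 for Cd63 and 2.78 for Il1rn, an inhibitor of interleukin 1. Igfbp2 differed by 3.55, and in dwarf mice it went from 15412 ± 4132 (n = 4) to 4257 ± 3209 (n = 3), a fall that passed. Further positive differences were 3.82 for Tff3, 2.51 for Btg2, 1.44 for Foxa3, 1.10 for Reln and 2.80 for Ahnak. More negative changes in wild type mice were -1.83 for Cyp4a14, -2.22 for Acot1, -0.92 for Cpt2, -1.19 for Abcd3, -1.58 for Gsta2, -1.77 for Aox1 and -1.39 for Sardh. The growth hormone axis gave -0.88 for Ghr and -2.05 for Igfals. The remaining values were -3.37 for Aqp4 and -1.22 for Ei24.

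A further 5 genes with negative differences rose in dwarf mice and did not pass in wild type mice. They were -4.67 for Wfdc21, -4.42 for Thrsp (a lipogenic thyroid hormone target), -3.82 for Anxa8, -3.65 for Orm1 (an acute phase protein) and -3.37 for Wfdc2. Wfdc21 went from 118 ± 52.7 to 2820 ± 764 in dwarf mice and from 16226 ± 2730 to 15798 ± 3033 in wild type mice. Of the 28 differences, all kept their sign under each alternative, and 9 kept their call: H2-Aa, Btg2, Acot1, Abcd3, Sardh, Aox1, Foxa3, Wfdc21 and Thrsp.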

How the results depend on the processing

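The number of calls depended on the processing, while the directions of the 64 named genes that passed did not. Among all 131 named genes, the sign changed in 69 pairs of gene and alternative, all of genes that passed in neither fit. Probe sets that rose with age, 105 as reported, numbered 63 with median scaling, 58 with no filter, 57 with no intensity trend, 270 with array weights, 54 with wild type arrays alone and 7 with the 18S covariate, and 32 to 268 with single arrays left out. Those that fell, 75 as reported, numbered 43, 44, 33, 202, 22 and 2 in the same order, 47 with the 3' to 5' ratio as a covariate, and 19 to 189 with single arrays left out. Differences between genotypes, 158 as reported, numbered 69 with no filter, 64 with no intensity trend, 57 with the 3' to 5' covariate and 57 to 151 with single arrays left out, and could not be fitted with wild type arrays alone. With no filter more probe sets were tested, and with wild type arrays alone fewer arrays gave the spread. The cause of the other shifts was not tested. Quantile scaling, other floors, the pseudocount, the stricter filter and robust eBayes moved each of these counts by less than 1.5 times. The floor at the pooled median did end 9 named calls and shrank changes that rest on low signals: Aqp4 went from -2.31 to -0.87, Bpifa2 from -2.05 to -0.55, Fosl2 from -2.53 to -0.78 and Pdgfra from 1.58 to 0.61. Of the 64 named genes that passed, none changed direction under any alternative, and 5 kept their call under all of them: Tff3, H2-Aa, Igkv6-23, Sqle and Cyp4a14. No paired analysis was possible because the old and young animals share no replicate numbers. Signals near the floor limit what can be seen: 5195 probe sets were not tested.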
